A study of Saccharomyces cerevisiae with 4 samples.

Results

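The cytosolic ribosomal proteins of budding yeast were followed here in ribosome profiling of meiotic cells with and without the RNA helicase Dbp1. Members were chosen by name alone: every ORF of the deposited footprint table whose systematic name carries, in the S288C annotation, a standard name of RPL or RPS plus a number and an optional A or B, or 1 of the stalk names *RPP0*, *RPP1A*, *RPP1B*, *RPP2A* and *RPP2B*. This gave 133 of the 5371 ORFs in the table, 77 of the large subunit (the stalk proteins included) and 56 of the small subunit. The name rule covers 137 symbols in S288C, and *RPL9A*, *RPL22B*, *RPL41A* and *RPL41B* were not analysed here. The 133 fall into 56 complete A and B paralog pairs, 19 ORFs whose names carry no A or B (called single-copy here), and *RPL9B* and *RPL22A*, whose paralogs are among the 4 not analysed.

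Ribosome profiling sequences the mRNA fragments that ribosomes protect from nuclease (footprints), so its values follow ribosome occupancy, which depends on mRNA level and on translation, and the mRNA libraries of these cells were not analysed here. The 4 libraries were 2 of wild-type and 2 of *dbp1Δ* SK1 diploids, the latter with the *DBP1* ORF cut out by Cas9 and no marker left in its place. All were collected 6 h after transfer to sporulation (SPO) medium, and the labels give a cycloheximide treatment of 100 µM for 30 s before freezing, where the methods give the same number in µg/ml. The labels call the replicates biological and give no strain isolate or culture, so the spread between them may be partly technical. SK1 is a laboratory strain that sporulates fast and evenly, and Dbp1 is a DEAD-box helicase and a paralog of the translation initiation factor Ded1.

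A ribosome has a small subunit, which binds the mRNA and decodes it, and a large subunit, which joins the amino acids and feeds the growing protein through its exit tunnel. Most yeast ribosomal proteins are encoded by 2 genes, an A and a B copy kept since an ancient genome duplication, and many of these genes hold an intron, which is rare in this species. In fast-growing cells the ribosomal protein genes are switched on together by Rap1, Fhl1, Ifh1 and Sfp1 and are among the most heavily translated genes of the cell. They are known to be turned down when nutrients run out, as in sporulation medium.

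The libraries were checked before the members were described. *DBP1* (YPL119C) had 164 and 147 RPKM with the gene present and 0.578 and 0.449 RPKM with it deleted, so the genotype labels hold. RPKM gives the reads of an ORF scaled by its length and by the mapped reads of the library. The summed level of 8 early meiotic genes ran from 3232 to 4265 RPKM over the 4 libraries and that of 8 middle meiotic genes from 23843 to 37138 RPKM, whereas the G1 cyclins *CLN1* and *CLN3*, which drive the mitotic cycle, summed to between 1.79 and 3.55 RPKM. Of the haploid-specific list 5 of 9 genes were in the table, and *STE18*, which encodes a subunit of the pheromone-response G protein, was the highest of them at 1681 RPKM by mean. Mapped reads, recovered from the steps of the RPKM values, numbered 5294778 and 4619171 for the wild type and 5789194 and 4971129 for *dbp1Δ*. The library labelled *dbp1Δ* replicate 1 stood apart: over all 5338 tested ORFs its log2 values correlated with those of the other libraries at 0.978 to 0.981, against 0.989 to 0.992 among the other 3.

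Ribosomal protein ORFs held a small share of the counted footprints. Their 133 ORFs held 14610 of the mapped footprints, or 0.276% (95% Clopper-Pearson interval 0.271% to 0.280%), in wild-type replicate 1. They held 0.303% (0.298% to 0.308%) in wild-type replicate 2, 0.291% (0.287% to 0.296%) in *dbp1Δ* replicate 1 and 0.275% (0.270% to 0.280%) in *dbp1Δ* replicate 2. The wild-type mean was 0.290% ± 0.019 (SD, n = 2) and the *dbp1Δ* mean 0.283% ± 0.012 (SD, n = 2). The highest share and the next to lowest were both wild type, and the genotypes overlapped (exact permutation test, two-sided p = 0.667; with 2 libraries against 2 the smallest p it allows is 0.333). The shares may be too low, because 112 of the 133 ORFs belong to pairs and reads matching both paralogs may not have been counted. The intervals cover counting error only, since PCR copies of a footprint cannot be told from separate molecules.

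The median ribosomal protein ORF stood in the middle of the table. Its level was 35.7 and 38.2 RPKM in the wild type and 37.1 and 35.4 RPKM in the *dbp1Δ* libraries, and the median of the mean RPKM over the 4 libraries, 35.9, lay above 52.2% of all ORFs in the table. By quartile of the table, 12 members were in the lowest, 46 in the second, 53 in the third and 22 in the highest. Only *RPL29* passed 1000 RPKM, 20 members passed 100 RPKM and 10 were under 10 RPKM. For scale, the meiotic kinase *IME2* averaged 1756 RPKM. The number of footprints behind a value ran from 4 to 882 per member and library, with a median of 71.5. All 4 libraries had at least 100 footprints for 35 members, and 16 had fewer than 20 in some library, so the low members are the least precise.

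**Figure D1:**
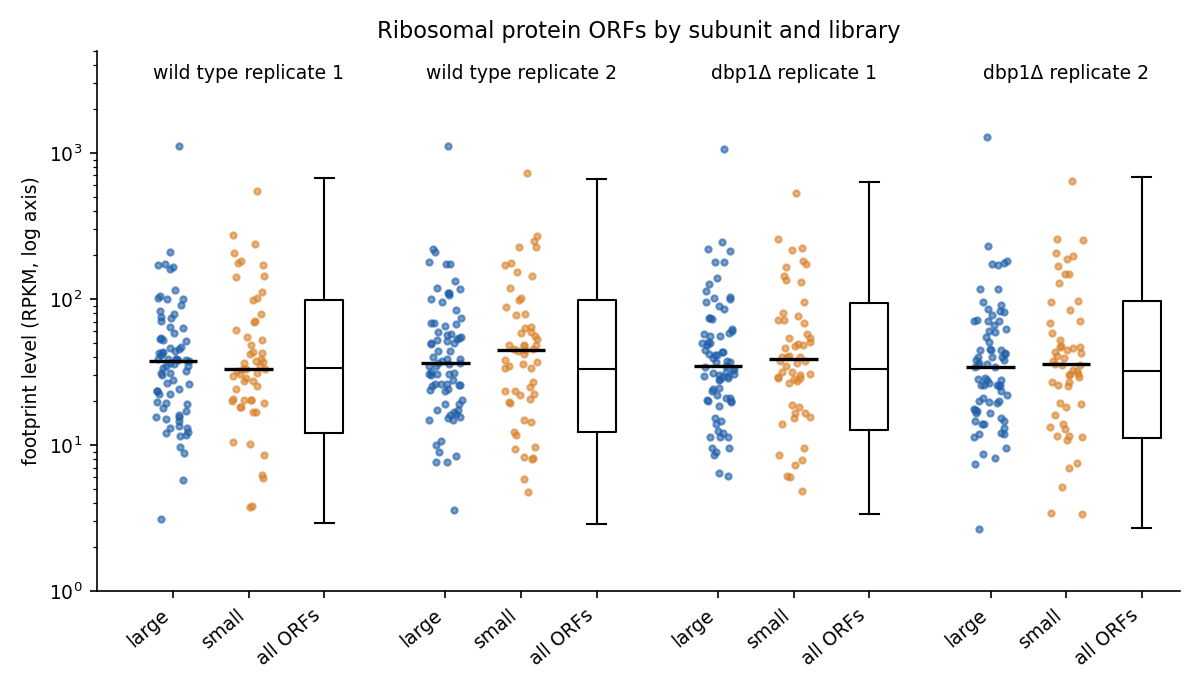
Footprint level (RPKM, log axis) of each ribosomal protein ORF in each library, by subunit, with the median as a black line, beside all 5371 ORFs of the table as a box from the first to the third quartile with whiskers from the 5th to the 95th percentile. In every library both subunit medians lie between 33.3 and 44.4 RPKM, close to the median of all ORFs, and *RPL29* is the highest point.

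In the large subunit the highest member was *RPL29*, a small protein that is dispensable for growth. It was at 1121 and 1111 RPKM in the wild type and at 1057 and 1286 RPKM in the *dbp1Δ* libraries, from 616 to 767 footprints, and its groups overlapped. In the S288C gene order its nearest neighbour in the table on the one side is *RRT5*, which encodes a protein of unknown function and was at 16450 to 19981 RPKM in the 4 libraries, and on the other *QCR6*, a subunit of respiratory complex III, at 368 to 410 RPKM. Whether the level of *RRT5* has a part in that of *RPL29* was not tested.

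The next 2 of the large subunit were *RPL15B* and *RPL37B*. *RPL15B* was at 210 and 221 RPKM in the wild type and at 219 and 229 RPKM in *dbp1Δ*. *RPL37B*, a zinc-binding protein, was at 172 and 210 RPKM in the wild type and at 212 and 175 RPKM in *dbp1Δ*. Neither separated the genotypes. At the low end were *RPL35B*, *RPL1B* and *RPL7B*. *RPL35B*, whose protein sits at the mouth of the exit tunnel, rested on few reads. It had 5 and 5 footprints in the wild type and 22 and 4 in *dbp1Δ*, that is 3.12, 3.57, 12.5 and 2.66 RPKM. *RPL1B*, of the L1 stalk where spent tRNA leaves, was at 5.72 and 7.65 RPKM in the wild type and at 6.40 and 8.13 RPKM in *dbp1Δ*. *RPL7B* was at 12.3 and 7.70 RPKM in the wild type and at 6.14 and 8.64 RPKM in *dbp1Δ*. From lowest to highest mean the large subunit thus covered a 209-fold range.

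In the small subunit *RPS28B*, *RPS30B* and *RPS25A* were highest. *RPS28B*, whose protein lies in the head near the mRNA exit, was at 550 and 728 RPKM in the wild type and at 528 and 638 RPKM in *dbp1Δ*. *RPS30B* was at 273 and 269 RPKM in the wild type and at 224 and 251 RPKM in *dbp1Δ*, so both deletion libraries were lower. *RPS25A*, of the head, was at 236 and 248 RPKM in the wild type and at 256 and 206 RPKM in *dbp1Δ*. Both *RPS28B* and *RPS25A* overlapped between genotypes. Among the lowest were *RPS6B* and *RPS9A*. *RPS6B*, whose protein is phosphorylated downstream of TOR signalling, was at 3.77 and 8.31 RPKM in the wild type and at 6.10 and 3.40 RPKM in *dbp1Δ*. *RPS9A*, whose protein lies near the mRNA entry channel, was at 8.49 and 8.11 RPKM in the wild type and at 4.85 and 3.39 RPKM in *dbp1Δ*. The deletion libraries were both lower for *RPS9A*, and for *RPS6B* they overlapped with the wild type.

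The subunits did not stand apart in level. The median log2 RPKM of the large subunit minus that of the small one was 0.16 and −0.28 in the wild-type libraries and −0.16 and −0.07 in the *dbp1Δ* libraries, so its sign was not the same in all 4. It averaged −0.06 ± 0.32 (SD, n = 2) in the wild type and −0.12 ± 0.06 (SD, n = 2) in *dbp1Δ* (exact permutation test, two-sided p = 1). With the mean of log2 RPKM in place of the median it was negative in all 4 libraries, from −0.11 to −0.06. The large subunit, which has more members, held more footprints, 0.164% to 0.180% of the mapped reads against 0.110% to 0.123% for the small subunit.

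Single-copy proteins had higher values than single members of pairs in the large subunit. Its 11 single-copy ORFs had a median of 103 RPKM (34.5 to 1144) and its 64 paired ORFs a median of 31.0 RPKM (5.47 to 219). Summed over both paralogs, the 32 large-subunit pairs had a median of 60.7 RPKM (19.7 to 304), below the single-copy median. In the small subunit the 8 single-copy ORFs had a median of 45.7 RPKM (29.0 to 197), also above that of the 48 paired ORFs, 36.9 RPKM. There the 24 summed pairs had a median of 85.1 RPKM (16.3 to 837), above the single-copy median, so only that order turned. A ribosome carries the products of most of these families in equal number, yet the summed footprint density of the families was far from equal. These are differences between genes, which are not replicates, and are given as a description with no test. How reads that match both paralogs were placed is not given in the sources used here, and if they were dropped the paired ORFs and their sums would read low.

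Among the single-copy proteins of the large subunit, *RPL10*, which is loaded last in the cytoplasm and shapes the tRNA sites, was at 161 and 178 RPKM in the wild type and 180 and 173 RPKM in *dbp1Δ*. *RPL3*, near the peptidyl transferase centre, was at 91.0, 109, 138 and 82.9 RPKM in the same order, so *dbp1Δ* replicates 1 and 2 were the highest and the lowest. *RPL5*, which binds the 5S rRNA, was at 102, 118, 95.07 and 95.03 RPKM, and both deletion libraries were below both wild-type libraries. In the small subunit *RPS13* was highest of the single copies at 183, 228, 181 and 196 RPKM, and *RPS12* was lowest at 27.4, 33.8, 29.3 and 25.4 RPKM. Both overlapped between the genotypes. *RPS2*, at the mRNA entry, was at 20.1 and 35.6 RPKM in the wild type, which were the lowest and the highest of its 4 values, and at 30.4 and 30.5 RPKM in *dbp1Δ*. These single-copy ORFs were picked after their values were seen.

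Short ribosomal proteins had more footprints per length than long ones. The 17 members under 100 residues had a median of 151 RPKM, the 56 of 100 to under 150 residues 39.3 RPKM, the 30 of 150 to under 200 residues 31.0 RPKM and the 30 of 200 residues or more 19.6 RPKM. Spearman's rho between ORF length and mean RPKM was −0.35 over the 133 members and −0.43 over the 112 members of pairs. Over 2208 other ORFs in the same range of lengths it was −0.22. The points share libraries, and the lengths by which the authors divided were 60 nt shorter than the ORFs, as the steps of the values show, so these are descriptions and their cause was not tested. An intron in the reference span marked 88 of the members, and these had a median of 35.0 RPKM against 43.3 RPKM for the 45 without an intron. Within pairs the medians were 34.1 RPKM for 82 ORFs with an intron and 28.1 RPKM for 30 without, so that order was not the same.

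**Figure D2:**
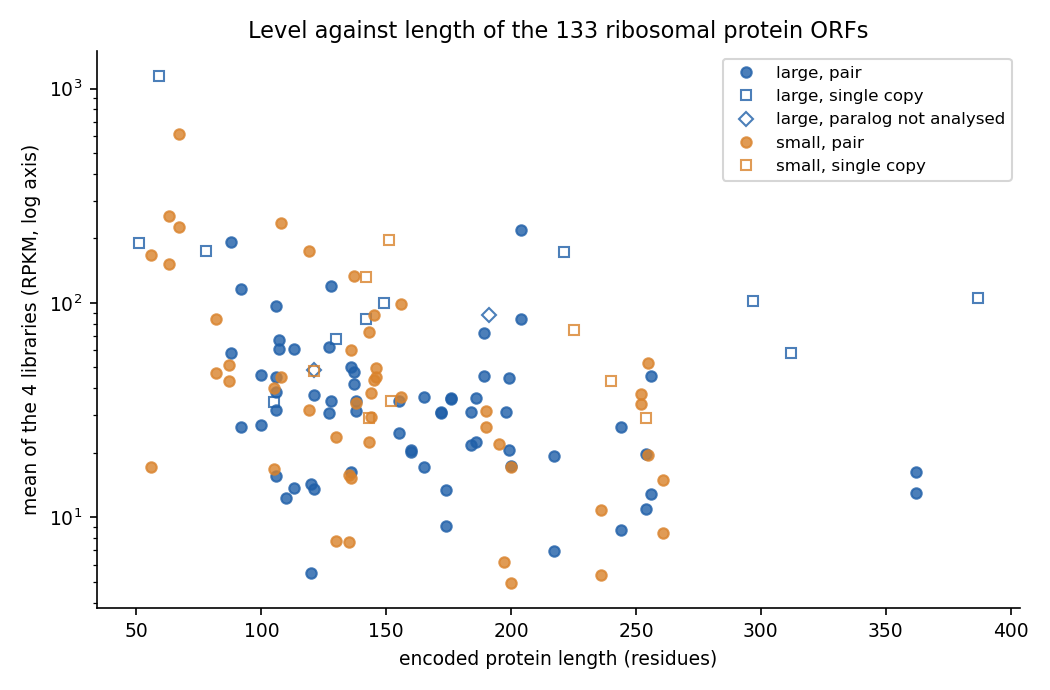
Mean level over the 4 libraries (RPKM, log axis) against protein length in residues for the 133 ribosomal protein ORFs, with filled circles for members of pairs and open symbols for the rest. Levels fall with length, from a median of 151 RPKM under 100 residues to 19.6 RPKM at 200 residues or more, and *RPL29* lies far above the others.

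The A and B paralogs of a pair were often at unlike levels. The A copy was above the B copy in all 4 libraries in 24 of 56 pairs and below it in all 4 in 20, and the other 12 pairs had neither order throughout. By mean log2 ratio A was higher in 28 pairs and B in 28, so neither letter marked the higher copy. The ratio reached 2-fold by mean in 32 pairs and in every library in 20, and the median size of the mean log2 ratio was 1.08, against a median SD of 0.23 between the 2 libraries of a genotype. In 28 pairs the 95% Clopper-Pearson interval of the A copy's share of the pair's footprints left out the share expected for equal density in all 4 libraries, and in 6 pairs it did so in none. Large-subunit pairs split into 15 with A and 10 with B throughout, and small-subunit pairs into 9 and 10. Every member value came out as whole footprints, which gave no sign of reads divided between copies. For the 88 members with an intron the length was itself chosen to make the values whole. Only members without an intron therefore bear on this, and of those 45 only the 30 that belong to pairs. Reads shared by near-identical paralogs could have gone to either, to both or to neither, and the ratios are uncertain to that extent.

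**Figure D3:**
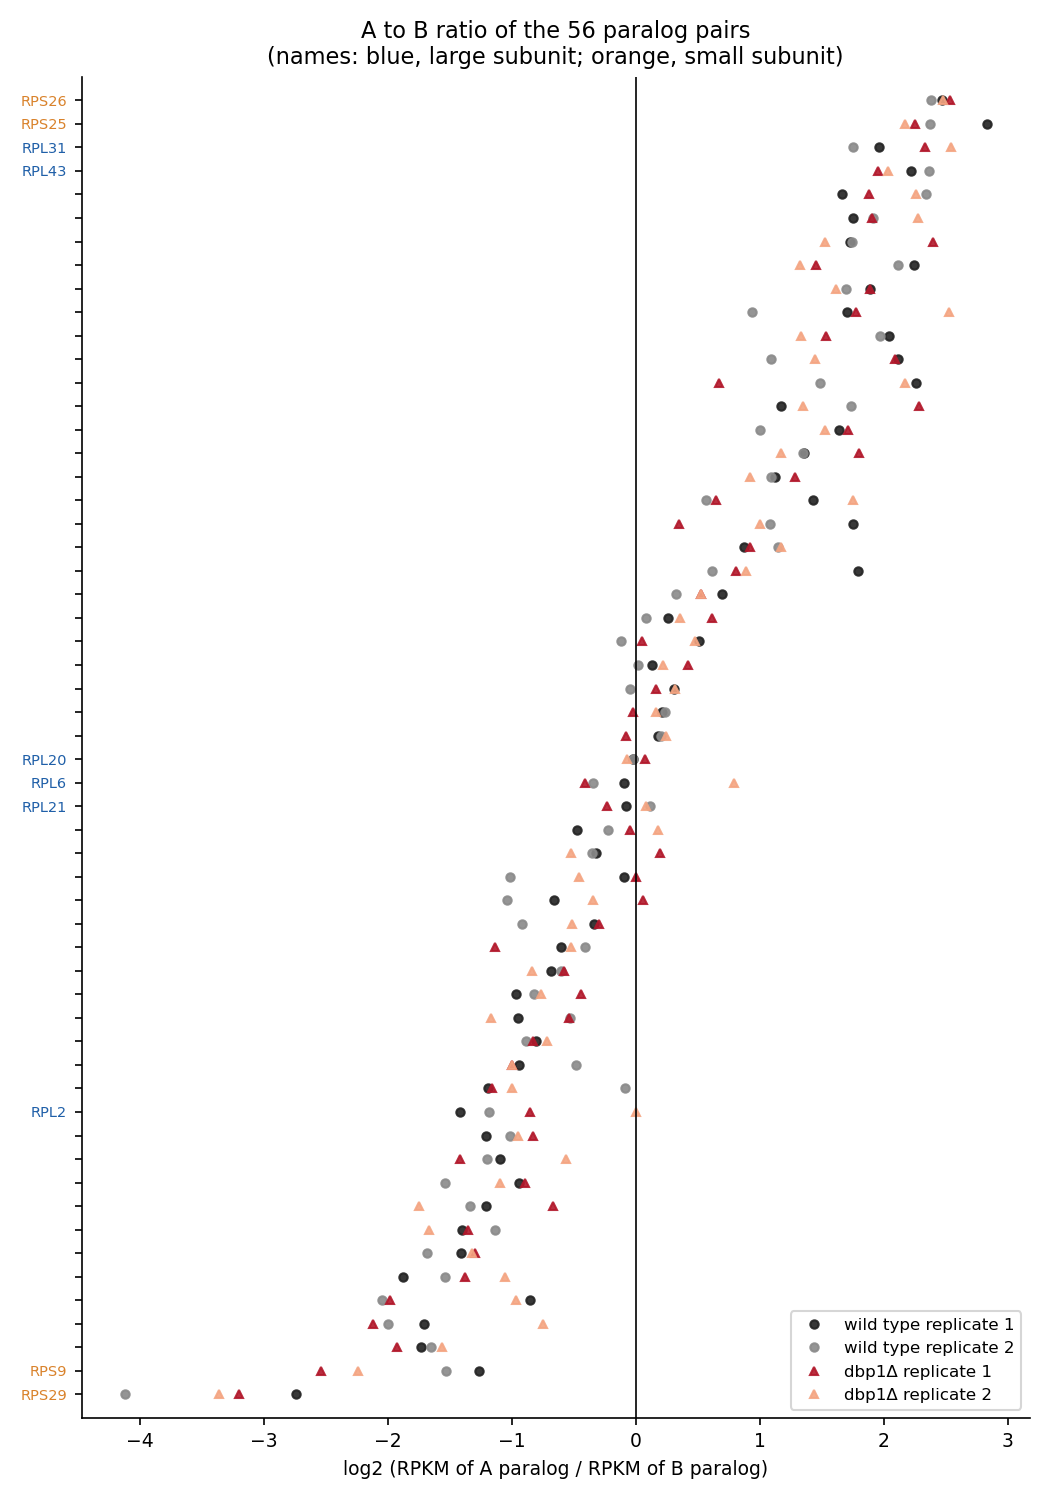
Log2 ratio of the RPKM of the A paralog to that of the B paralog for the 56 complete pairs, sorted by the mean of the 4 libraries, with the pairs described in the text labelled, circles for wild type and triangles for *dbp1Δ*. All 4 points lie right of 0 in 24 pairs and left of it in 20, from *RPS26* (mean 2.46) at the top to *RPS29* (mean −3.36) at the bottom.

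The 5 pairs furthest from equality among those described were *RPS29*, *RPS26*, *RPS25*, *RPL31* and *RPL43*. For *RPS29*, a zinc-binding protein of the head, the A copy had 15, 5, 10 and 10 footprints and the B copy 100, 87, 92 and 103 in wild-type replicates 1 and 2 and *dbp1Δ* replicates 1 and 2. The B copy was higher in each library, 10.2-fold by the mean log2 ratio (−3.36 ± 0.58, SD, n = 4 libraries). For *RPS26*, whose protein touches the mRNA at its exit on the platform, *RPS26A* was at 178, 177, 173 and 168 RPKM and *RPS26B* at 32.1, 33.9, 29.9 and 30.2 RPKM. This was the steadiest of the 5, with log2 ratios of 2.38 to 2.53. *RPS25A* stood above *RPS25B* by 2.41 ± 0.30 on the log2 scale, with the B copy at 33.3, 47.8, 53.7 and 46.0 RPKM.

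*RPL31*, of the exit tunnel rim, had its A copy at 46.9 and 56.8 RPKM in the wild type and at 74.1 and 66.3 RPKM in *dbp1Δ*, and its B copy at 12.1, 16.9, 14.7 and 11.4 RPKM. The log2 ratio was 1.96 and 1.75 in the wild type and 2.33 and 2.54 in *dbp1Δ*, so the groups did not overlap. *RPL43A* was at 104, 132, 113 and 117 RPKM and *RPL43B* at 22.4, 25.7, 29.2 and 28.5 RPKM, a mean log2 ratio of 2.14 ± 0.19. The *RPL43* ratio was lower in *dbp1Δ* without overlap (2.22 and 2.37, then 1.95 and 2.03). That of *RPS25* was also lower without overlap (2.83 and 2.37, then 2.25 and 2.17). For *RPS26* it was slightly higher without overlap (2.467 and 2.382, then 2.533 and 2.474), and for *RPS29* the genotypes overlapped. Non-overlap was thus not particular to *RPL31*, and its direction varied.

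The 3 pairs nearest to equality were *RPL20*, *RPL6* and *RPL21*. *RPL20A* had 64, 65, 79 and 83 footprints and *RPL20B* 65, 66, 75 and 87, so the log2 ratio stayed within −0.07 to 0.07. *RPL21A* had 36, 51, 51 and 37 footprints and *RPL21B* 38, 47, 60 and 35. *RPL6* was even only on average, since its A copy was at 35.7, 30.8, 31.5 and 44.4 RPKM and its B copy at 38.1, 39.1, 41.8 and 25.6 RPKM, giving log2 ratios from −0.41 to 0.79. That highest ratio came from *dbp1Δ* replicate 2 alone.

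No ribosomal protein passed the threshold between the genotypes. Under limma on log2(RPKM + 0.5), with Benjamini-Hochberg adjustment over 5338 ORFs, 0 of 133 members had an adjusted p under 0.05 (every adjusted p was 0.9998 or more), where 0.0375% of all ORFs, 2 in number, passed. At an unadjusted p under 0.05 there were 5 members, 3 large and 2 small, where the background was 1.67%, or 89 ORFs. Leaving out *dbp1Δ* replicate 2, so that *dbp1Δ* rested on replicate 1 alone, 4 members passed (*RPL35B* and *RPL39* higher, *RPL11B* and *RPS23B* lower) among 518 ORFs in all. The median log2 fold change, *dbp1Δ* over wild type, was −0.06 over the members, −0.04 over the large subunit and −0.08 over the small subunit, beside −0.03 over all tested ORFs. The added 0.5 shrinks the fold changes of ORFs at low levels. Leaving out a library moved the median over the members between −0.13 and −0.0040 and that over the large subunit between −0.13 and 0.015, so the sign of the latter is not settled. Single members ran from −0.95 (*RPS9A*) to 0.74 (*RPL35B*). With a pseudocount of 0.1 *RPS9A* reached −1.01, so whether a member passes 2-fold depends on the value added, and also on the libraries used, since 0 to 2 members did with a library left out.

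Counting only whether the genotypes overlapped, 12 members were higher in both *dbp1Δ* libraries than in both wild-type libraries, where 9.59% of all tested ORFs were, and 27 were lower, where 15.3% were. The large subunit gave 7 higher and 16 lower, and the small subunit 5 and 11. The lower members thus made 20.3% of the 133 against 15.3% of all ORFs, and this gap depended on the replicate 2 libraries of both genotypes. Leaving out a library makes non-overlap easier for every ORF, so each count is set beside its own background. Without wild-type replicate 2, 40 members (30.1%) were lower beside 28.5% of all ORFs, and 40 were higher beside 18.9%. Without wild-type replicate 1, 61 members (45.9%) were lower beside 27.7% of all ORFs. Without *dbp1Δ* replicate 1, 67 members (50.4%) were lower beside 43.2%. Without *dbp1Δ* replicate 2, 40 members (30.1%) were lower beside 41.6%, so that the gap turned round. The higher members made 18.8% beside 21.2% without wild-type replicate 1. They made 18.8% beside 28% without *dbp1Δ* replicate 1 and 34.6% beside 40.8% without *dbp1Δ* replicate 2.

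**Figure D4:**
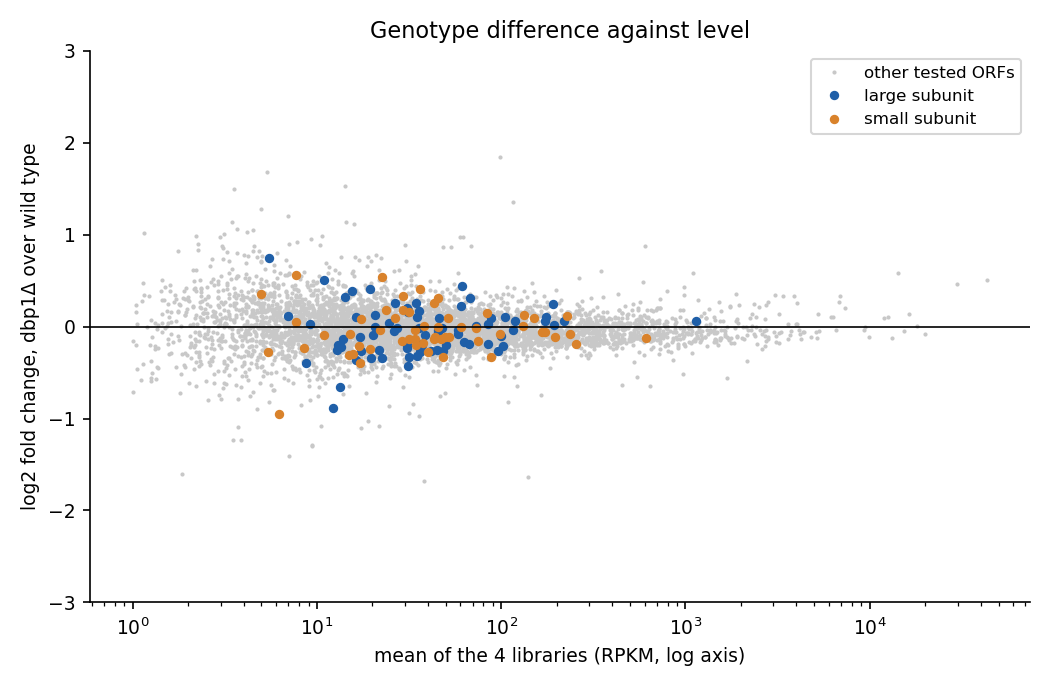
Log2 fold change, *dbp1Δ* over wild type on log2(RPKM + 0.5), against the mean level of the 4 libraries (RPKM, log axis) for the tested ORFs in grey and ribosomal protein ORFs in colour. Members lie within the cloud of the other ORFs, from −0.95 to 0.74, and 2 ORFs fall outside the vertical axis.

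The 5 members with the largest rises among those whose genotypes did not overlap were *RPS22A*, *RPS16B*, *RPL2A*, *RPL31A* (given above with its paralog) and *RPL1A*. *RPS16B*, of the head near the decoding site, was at 16.8 and 19.8 RPKM in the wild type and at 26.5 and 27.0 RPKM in *dbp1Δ*, a log2 difference of 0.54 ± 0.20 (SE; limma adjusted p = 0.9998). *RPS22A* was at 6.24 and 5.85 RPKM in the wild type and at 7.26 and 11.5 RPKM in *dbp1Δ*, and rested on 9 to 19 footprints a library. *RPL2A*, at the core of the large subunit, was at 8.84 and 8.91 RPKM in the wild type and at 11.3 and 14.6 RPKM in *dbp1Δ* (log2 difference 0.51 ± 0.24 SE). For *RPL1A* the values were 17.8 and 15.3 RPKM, then 20.9 and 23.4 RPKM (0.41 ± 0.20 SE). None of these passed the adjusted threshold.

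Among the largest falls were *RPS9A*, *RPP2B* (given below with the stalk) and *RPL11B*. *RPS9A* had 24 and 20 footprints in the wild type and 15 and 9 in *dbp1Δ*, a log2 difference of −0.95 ± 0.29 (SE; limma adjusted p = 0.9998), while its paralog *RPS9B* was at 20.4 and 23.4 RPKM, then 28.1 and 16.0 RPKM. *RPL11B*, which joins the particle that carries the 5S rRNA, was at 15.4 and 17.2 RPKM in the wild type and at 8.54 and 12.1 RPKM in *dbp1Δ* (−0.65 ± 0.25 SE), with an adjusted p of 0.0397 when *dbp1Δ* replicate 2 was left out. In that fit the spread comes from the wild-type libraries alone, and *dbp1Δ* is the library that stood apart. The deletion libraries were lower than the wild type in each, since these members were chosen for not overlapping. Under limma the unadjusted p was 0.011 for *RPS9A*, 0.0109 for *RPP2B* and 0.0289 for *RPL11B*. With all 4 libraries none of them passed after adjustment over 5338 ORFs.

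The stalk, which recruits the translation GTPases to the large subunit, had negative fitted differences throughout. All 7 ORFs of the stalk and its base (*RPP0*, the 4 acidic P protein genes and the *RPL12* pair) had a negative log2 fold change. The median was −0.26 and the range −0.88 to −0.08, beside a median of −0.03 over all tested ORFs. The fold change was also negative in 3044 of all 5338 tested ORFs and in 81 of the 133 members. In 3 of the 7 both *dbp1Δ* libraries were below both wild-type libraries, against 15.3% of all ORFs, and in none were they above. No stalk gene passed the adjusted threshold, and 1 of 7 had an unadjusted p under 0.05, where 1.67% of all ORFs did. *RPP2B* was at 13.1 and 19.0 RPKM in the wild type and at 9.49 and 7.37 RPKM in *dbp1Δ*, from 10 to 24 footprints. *RPP1A* was at 101 and 109 RPKM, then 90.0 and 84.8 RPKM, and *RPP1B* at 46.3 and 51.4 RPKM, then 37.1 and 44.7 RPKM. These 3 are the members of the list whose genotypes did not overlap. *RPP2A* was at 42.7 and 36.5 RPKM, then 32.4 and 42.4 RPKM. *RPP0*, the anchor of the stalk, was at 54.1 and 65.5 RPKM, then 58.6 and 54.5 RPKM, and both overlapped.

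The 3 ubiquitin fusion genes, which supply a ribosomal protein and free ubiquitin from a single precursor, did not separate the genotypes. *RPL40A* was the highest at 116 and 118 RPKM in the wild type and 127 and 117 RPKM in *dbp1Δ*. *RPL40B* was at 31.2 and 36.4 RPKM, then 34.3 and 38.1 RPKM, and *RPS31* at 29.8 and 45.03 RPKM, then 31.6 and 32.3 RPKM. For *RPS31* the wild-type replicates were further apart than the genotype means. The median log2 fold change of the 3 ubiquitin fusion genes was 0.06. Medians of 4 other structural lists were negative, beside −0.03 over all tested ORFs. Without overlap, 15.3% of all tested ORFs were lower and 9.59% higher. Of the 3 genes of the 5S particle 2 were lower without overlap and 0 higher, with a median log2 fold change of −0.21, and of 6 genes of the small-subunit platform 3 were lower and 0 higher, with a median of −0.12. Of 14 exit tunnel genes 4 were lower and 1 higher (median −0.03), and of 22 genes of the small-subunit head 2 were lower and 1 higher (median −0.07). Under limma 0 genes of these 4 lists passed the adjusted threshold. At an unadjusted p under 0.05 there were 1, 0, 1 and 1 in the same order, where the background was 1.67%.

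The A to B ratio differed between genotypes by at most 0.99 on the log2 scale. The median size of the difference over 56 pairs was 0.24, near the median SD between libraries of 0.23, and in no pair did the higher copy switch from A in both wild-type libraries to B in both *dbp1Δ* libraries or the reverse. The widest was *RPS9*, with log2 ratios of −1.26 and −1.53 in the wild type and −2.54 and −2.24 in *dbp1Δ*. *RPL2* went from −1.42 and −1.19 to −0.85 and 0.00. Both pairs were picked for their difference after the values were seen, so no test is given, and they held only 310 and 447 footprints over both copies and all libraries.

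Replicates differed among themselves as much as the genotypes did. In the wild type the members were lower in replicate 1 than in replicate 2 by a median log2 ratio of −0.15, and only 42 of 133 were higher in replicate 1, where 52.2% of all tested ORFs were and the median over all ORFs was 0.01. In *dbp1Δ* the median was 0.06 and 79 of 133 were higher in replicate 1, where 54.4% of all ORFs were and the median was 0.05. The library that stood apart over all ORFs thus had its ribosomal proteins, as a group, close to the median of all ORFs. The SD of the log2 ratio over the members was 0.36 in the wild type and 0.40 in *dbp1Δ*, of which counting alone gives 0.30 and 0.29. The *dbp1Δ* libraries were 2-fold or more apart in 1 member, where 4.16% of all ORFs were, and the wild-type libraries in 2, where 0.955% were.

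Members furthest up in *dbp1Δ* replicate 1 over replicate 2 were *RPL35B*, *RPS9B* and *RPL36A*. The ratio was 2.05 for *RPL35B* on the log2(RPKM + 0.5) scale, from 22 and 4 footprints. *RPS9B* was at 28.1 against 16.0 RPKM, and *RPL36A* at 34.8 against 19.9 RPKM, with wild-type values of 23.3 and 30.3 RPKM. Furthest down were *RPS22A* (7.26 against 11.5 RPKM), *RPS10B* (28.8 against 44.4 RPKM) and *RPL27B* (11.3 against 16.6 RPKM). In the wild type *RPS10B* was at 38.8 and 48.7 RPKM and *RPL27B* at 13.5 and 23.4 RPKM, so replicate 2 was the higher library for these 2 in both genotypes. By structural group, 13 of the 14 exit tunnel genes were higher in *dbp1Δ* replicate 1 (median log2 ratio 0.23), and 15 of the 22 head genes (0.17). Over all tested ORFs 54.4% were. The stalk and its base had 4 of 7 (0.09) and the platform 3 of 6 (0.02). The 5S particle had 1 of 3 (−0.09) and the ubiquitin fusions 1 of 3 (−0.03).

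Several lists of related genes were further from 0 than the ribosomal proteins in the ratio of the *dbp1Δ* libraries. Of 29 ribosome biogenesis genes, 28 had more RPKM in *dbp1Δ* replicate 1 than in the other, at a median log2 ratio of 0.74. Of 9 chaperones of ribosomal proteins 8 did, with a median of 0.42. Over 10 translation elongation factors the median was 0.28. The 54 mitochondrial ribosomal proteins named MRPL, MRPS or RSM plus a number went the other way, with 10 higher and a median of −0.31. They stood at a median of 57.9 RPKM, above the cytosolic ones. Mitochondrial ribosomal proteins with other names, such as *MRP51*, were not in the list. The 8 early meiotic genes were all higher in *dbp1Δ* replicate 1 (median 0.68), and of 8 middle meiotic genes 3 were (median −0.34), whose summed level in that library was led by *SPS4*. The lists were chosen with earlier results of these data known, so these shifts are descriptions, and their part in the values above was not tested.

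**Figure D5:**
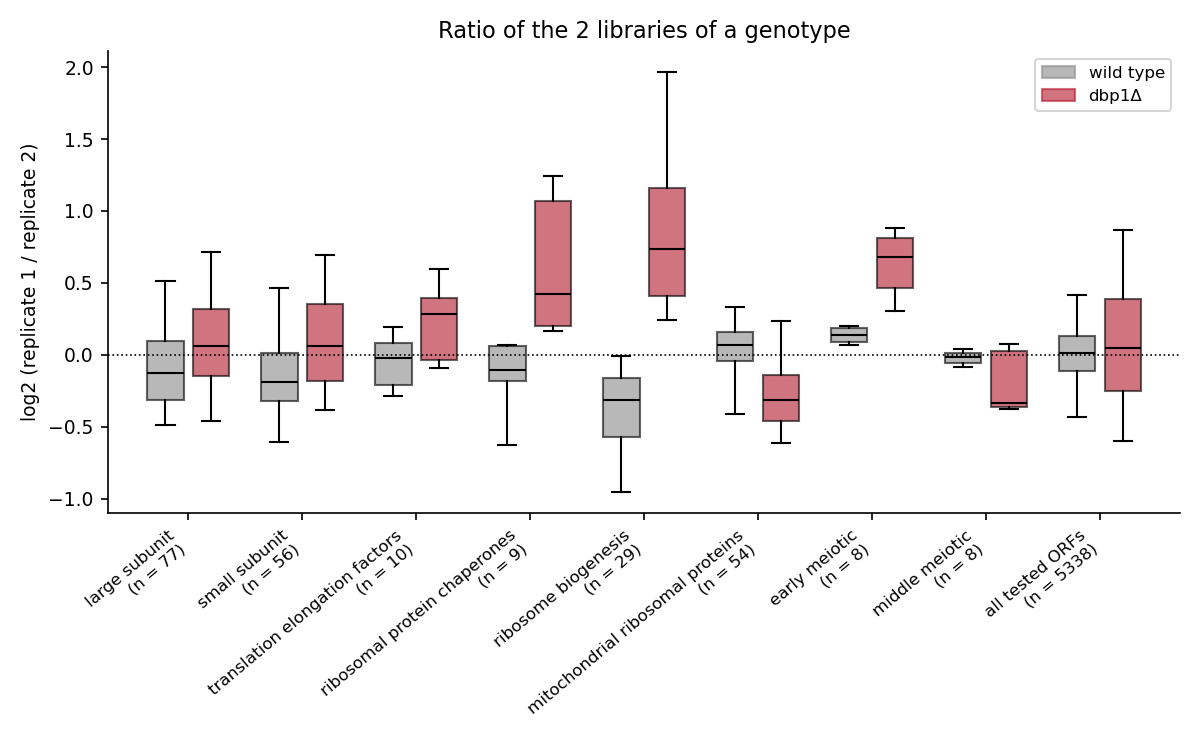
Log2 ratio of replicate 1 to replicate 2 within wild type (grey) and within *dbp1Δ* (red) for each subunit and for lists of related genes, as boxes from the first to the third quartile with the median and whiskers from the 5th to the 95th percentile. In *dbp1Δ* both subunits lie near all ORFs (medians 0.06 and 0.05), whereas ribosome biogenesis genes have a median of 0.74 and mitochondrial ribosomal proteins −0.31.

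Between genotypes none of these lists had a gene past the adjusted threshold. The median log2 fold change was 0.21 over ribosome biogenesis genes, −0.16 over the listed mitochondrial ribosomal proteins and −0.04 over the chaperones. It was 0.04 over the elongation factors and −0.01 over 10 listed regulators of ribosomal protein or ribosome biogenesis genes, beside −0.03 over all tested ORFs. Ribosome biogenesis genes summed to 437 and 525 RPKM in the wild type and to 609 and 460 RPKM in *dbp1Δ* replicates 1 and 2, so their sums overlapped between genotypes. Among the regulators the repressor gene *DOT6* was at 209 and 213 RPKM in the wild type and at 133 and 180 RPKM in *dbp1Δ* (−0.45 ± 0.18 SE; limma adjusted p = 0.9998). The activator genes *IFH1* and *SFP1* were at 2.20 and 14.4 RPKM by mean, and *RAP1*, which also binds telomeres, at 69.3 RPKM. *IFH1* was at 3.51 RPKM in *dbp1Δ* replicate 1 and at 1.32 RPKM in replicate 2. Elongation factors spanned a wide range too: *HEF3*, which encodes the alternative form of elongation factor eEF3, was at 1784 to 1898 RPKM over the 4 libraries, and its paralog *YEF3*, the form of growing cells, at 51.5 to 74.4 RPKM.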

How the data were processed

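Ribosome footprints of 4 libraries, 2 wild-type and 2 *dbp1Δ*, were used. Per the methods, the authors mapped reads to the SK1 genome and deposited RPKM values, reads per ORF divided by mapped reads and ORF length, for each library separately and with no scaling between libraries. The submitters' processing notes name Bowtie2; its version and settings are not given in the sources used here. mRNA libraries were not analysed here.

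Groups and replicate numbers came from the sample titles. Symbols came from the S288C annotation (R64), in which 5311 of 5371 ORFs have a row, and no coordinates or sequences are given, since the files use SK1. The steps of the RPKM values gave the depth of each library (4619171 to 5789194 mapped reads), a counted length 60 nt below the ORF length, and whole footprints for all 133 members within 0.005 reads. Where a member's reference span gave no whole footprints, a length that did was chosen, the paralog's or the smallest multiple of 3. An intron was called where the reference span was longer than the ORF length recovered this way. Intervals are exact 95% Clopper-Pearson intervals.

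Genotypes were compared with limma 3.58.1 in R 4.3.3 (lmFit, eBayes with a trend) on log2(RPKM + 0.5) for the 5338 ORFs that averaged 1 RPKM or more, with Benjamini-Hochberg adjustment over all of them, and single values with an exact permutation test over libraries. Both the recovery and the fit were run on simulated data, with outcomes not reported here. The simulated reads for the fit had the same spread in every library, so they do not cover a library that stands apart. Other calculations used Python 3.11.15, pandas 2.3.3 and scipy 1.17.1.

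Named ORFs were, by rule, the 3 highest and 3 lowest of each subunit, the stalk and ubiquitin fusion genes, the 6 most and 3 least unequal pairs, up to 5 rises and 5 falls without overlap, and the 3 at each end of the *dbp1Δ* replicate ratio. Other ORFs were named after their values were seen. Some items that the rule chose are not reported here. The members and lists were chosen with earlier results of these data known. Of the listed genes, 1 elongation factor gene, 4 haploid-specific genes and 1 G1 cyclin gene were not analysed here. Alternatives were other pseudocounts and filters, median centring, quantile normalization, no trend, a replicate block and leaving out each library, and a crossed block was added after the data were seen.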

Additional observations from a re-analysis of the deposited data

How the results depend on the processing

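With 2 libraries per genotype and 4 to 882 footprints per ribosomal protein ORF and library, the low members are the least precise. A pseudocount of 0.1 or 1, testing every ORF, testing only those averaging 10 RPKM or more (which left 123 members), median centring, quantile normalization, no eBayes trend and the replicate block all gave 0 members past the adjusted threshold, with 4 to 5 members at an unadjusted p under 0.05. Leaving out a library gave 0 to 4 members past it, the 4 without *dbp1Δ* replicate 2, where 1 to 518 ORFs of the whole table passed in place of 2. The medians moved over −0.13 to −0.0040 for all members, −0.13 to 0.015 for the large subunit and −0.14 to −0.01 for the small subunit when a library was left out, so the sign of the large-subunit median is not settled. Leaving out a library put 25 to 46 members (18.8% to 34.6%) above and 40 to 67 (30.1% to 50.4%) below without overlap. Over all tested ORFs the shares then ran from 18.9% to 40.8% above and from 27.7% to 43.2% below. With the full ORF length in place of the counted length, the share of mapped reads became 0.343% in the wild type and 0.336% in *dbp1Δ*. Counts of pairs with A above B throughout ran from 24 to 26, and with B above A from 20 to 24. *RPL11B* passed the adjusted threshold only without *dbp1Δ* replicate 2, at −0.89, where the spread comes from the wild-type libraries alone and *dbp1Δ* replicate 1 is assumed to vary like them.

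The labels number the libraries 1 and 2 in both genotypes, but nothing says that equal numbers were handled together, and around the genotype means the libraries that share a number correlated at −0.14 over all tested ORFs and −0.06 over the members. With the replicate number as a block, 25 ORFs passed in place of 2, and 0 members did, the lowest adjusted p among members being 0.264. With crossed pairing 28 ORFs and 0 members passed.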
